A study of Mus musculus with 32 samples.

Results

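The transcripts described here are those of 41 genes that act at the G1/S transition of the cell cycle and in DNA replication, taken by symbol from a table of 21886 genes. All 41 were in the table and all 41 passed a filter of at least 1 CPM (read counts scaled to library size) in at least 16 libraries, which kept 11772 genes for testing. They comprise 9 genes grouped under origin licensing, 4 of helicase activation, 15 of the synthesis machinery and 4 of nucleotide supply. The others are 4 cyclin E and E2F genes, 3 of histone mRNA binding and chromatin assembly, and 2 of DNA repair. The licensing group includes Mcm10, which is neither a loader nor a subunit of the Mcm2 to Mcm7 helicase.

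The RNA came from mouse presomitic mesoderm (PSM), the tissue that is cut into somites, grown in culture from epiblast stem cells of an AES0204 based line with a Hes7 luciferase reporter. Hes7 is a core gene of the segmentation clock, the oscillator that paces somite formation. There were 2 time courses, called Ex5 and Ex4, each with 16 dishes frozen at 16 times, 165 to 425 min in Ex5 and 155 to 405 min in Ex4, and the labels do not give the starting point of these times. Both courses carried the same reporter and the same medium, CDMi with SB431542 (10 µM), LDN193189 (250 nM), bFGF (20 ng/ml) and CHIR99021, which was lowered to 1 µM after 30 h at 10 µM. There was 1 library per time and course, so the error of every slope and level is the scatter of libraries about fitted curves, and nothing in the labels says that the dishes of a course were separate cultures. A difference between Ex5 and Ex4 therefore cannot be told apart from a difference between 2 culture runs.

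Before S phase, Cdc6 and Cdt1 load the MCM helicase onto origins, and Cdc45 and the GINS complex then turn it on. Primase and the DNA polymerases copy the strands with the help of a sliding clamp and its loader, while other enzymes supply nucleotides and join the lagging strand. Many of these genes are known targets of E2F transcription factors, whose activity is raised by cyclin E with its kinase partner and held back by RB proteins. In a bulk sample, fewer cells in S phase and less of each transcript per cell cannot be told apart.

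The tissue label was checked against marker genes. All 12 PSM markers were above the filter, among them Tbx6, at 425 to 702 CPM in Ex5 and 354 to 491 CPM in Ex4, and Dll1. Of 10 epiblast markers 5 were above it, and their summed level was lower in the last 5 than in the first 5 libraries of each course: 274 ± 11 and 350 ± 5.9 CPM in Ex5, and 332 ± 11 and 426 ± 18 CPM in Ex4 (SD, n = 5 each). Of these 5, 1 rose and 4 fell in each course by the tests described below (background over all genes 25.8% and 25.3% in Ex5, 16.9% and 15.5% in Ex4). Among the epiblast markers below the filter, Zfp42 was at 0 in 25 of 32 libraries, and Nanog, Fgf5 and Otx2 had at most 12 counts in any library. The tested neural markers (5 of 6, mostly Nes) summed to 399 to 556 CPM in Ex5 and 357 to 459 CPM in Ex4 (426 ± 12 late and 517 ± 35 CPM early in Ex5, 400 ± 25 and 418 ± 37 CPM in Ex4; SD, n = 5 each), those of endoderm (3 of 6, mostly Cxcr4) to 29.9 to 53.0 and 27.6 to 54.2 CPM, and those of lateral and vascular mesoderm (2 of 8) to 1.74 to 4.24 and 2.37 to 3.84 CPM. Depth was 16.1 to 28.6 M counts in Ex5 and 19.3 to 29.5 M in Ex4, and it was lower late in both courses (last 5 libraries 16.1 to 21.8 M against 18.7 to 24.8 M for the first 5 in Ex5, and 19.3 to 25.8 M against 23.2 to 29.5 M in Ex4). The endoderm sum was higher late in both courses (46.5 ± 4.2 and 35.4 ± 4.5 CPM in Ex5, 48.6 ± 3.3 and 30.6 ± 3.7 CPM in Ex4), which was almost all Cxcr4 (mean slope 0.32), a gene that also passed the rhythm test. Of the other endoderm markers Foxa1 rose (0.29), Foxa2 fell (-0.27) and Sox17, Gata4 and Gata6 were below the filter. By the tests described below, 4 PSM markers rose and 7 fell in Ex5 (background over all genes 25.8% and 25.3%). In Ex4 5 rose and 2 fell (background 16.9% and 15.5%). Their slope was lower in Ex5 for 6 and higher for 0 (background 9.06% and 7.03%). Their level was higher in Ex5 for 8 and lower for 4 (background 27.4% and 27.7%). Epiblast markers, PSM markers, Cxcr4 and depth thus moved with time in both courses, as did the neural sum in Ex5. Their part in the slopes below was not tested.

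The 41 genes together took 0.693 to 0.797% of the counts of a library. Scaled for exonic length, the highest mean levels were those of Rrm2 (157 CPM per kb), Mcm3 (140), Pcna (130) and Mcm5 (127), and the lowest was that of E2f2 (1.22 CPM per kb), with Pola1 (7.13) and Ccne2 (8.19) next. The 6 MCM subunits Mcm2 to Mcm7 were all among the 8 highest, while Pola1 and Pcna, both of the synthesis machinery, lay at opposite ends.

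The set as a whole changed little over the sampled times, and it did not drift as 1 block. Its summed level was 7148 ± 88 CPM in the last 5 and 7250 ± 74 CPM in the first 5 libraries of Ex5, and 7242 ± 108 and 7651 ± 203 CPM in Ex4 (SD, n = 5 each). Slopes were estimated for all genes with edgeR's quasi-likelihood test, as log2 changes per 100 min, and called at a Benjamini-Hochberg adjusted p under 0.05. On the mean slope of the 2 courses 19 of 41 genes passed, 6 rising and 13 falling, against a background of 53.3% of all genes tested (26.8% rising and 26.6% falling). The median mean slope was -0.015 for the members and -0.0016 for all genes, and 27 of 41 members lay within 0.05 of zero. The members' share of calls was thus near that of all genes, and what the members show is which of them moved and in which course.

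In Ex5, 9 members rose and 8 fell (background 51.2% called, 25.8% rising and 25.3% falling), with a median slope of 0.0060 for the members and 0.00025 for all genes. In Ex4, 2 rose and 18 fell (background 32.5% called, 16.9% rising and 15.5% falling), with a median of -0.043 for the members and -0.0035 for all genes. The 18 that fell are 43.9% of the members. Both courses called 10 members: 7 fell in both (Mcm4, Mcm5, Mcm6, Pcna, Rfc5, Ccne1 and Ccne2), Cdt1 and E2f1 rose in both, and Tk1 rose in Ex5 and fell in Ex4. Among all genes, 22% were called in both courses with the same sign and 0.815% with opposite sign. Across the 41 members the Ex5 and Ex4 slopes correlated with Pearson's r = 0.745 and Spearman's rho = 0.63, a description over genes that share their libraries.

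The members stood highest in the opening of Ex4. In the 4 libraries at 155 to 200 min the members' sum was 7665 to 7830 CPM, while in the other 12 libraries of Ex4 it was 7085 to 7413 CPM and in all 16 of Ex5 it was 7031 to 7454 CPM. The 4 opening libraries do not overlap with any of the others, but they were picked after seeing the data, so this is a description. The median deviation of the members from their own means was 0.059 to 0.10 on the log2 scale in those 4, -0.049 to 0.013 in the other libraries of Ex4 and -0.066 to 0.036 in Ex5. These 4 libraries held 23.2 to 29.5 M counts, against 19.3 to 26 M in the rest of Ex4. With those 4 left out, an alternative chosen after seeing the data, 3 members fell in Ex4 (Ccne1, Lig1 and Tk1) in place of 18, and 4 rose (Cdc6, Cdt1, E2f1 and Chaf1b) in place of 2. Over all genes tested the number of slopes called in Ex4 was then 1518, against 3823 with all libraries, so fewer calls do not by themselves show smaller slopes. The median Ex4 slope of the 41 was -0.0046 without the 4 and -0.043 with all libraries. Of the 15 falling members whose call was lost, 7 had under 50% of their slope left (among them Mcm4, Mcm5, Pcna and Rrm2) and 3 at least 75% (Rpa2, Cdc45 and Slbp).

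**Figure D1:**
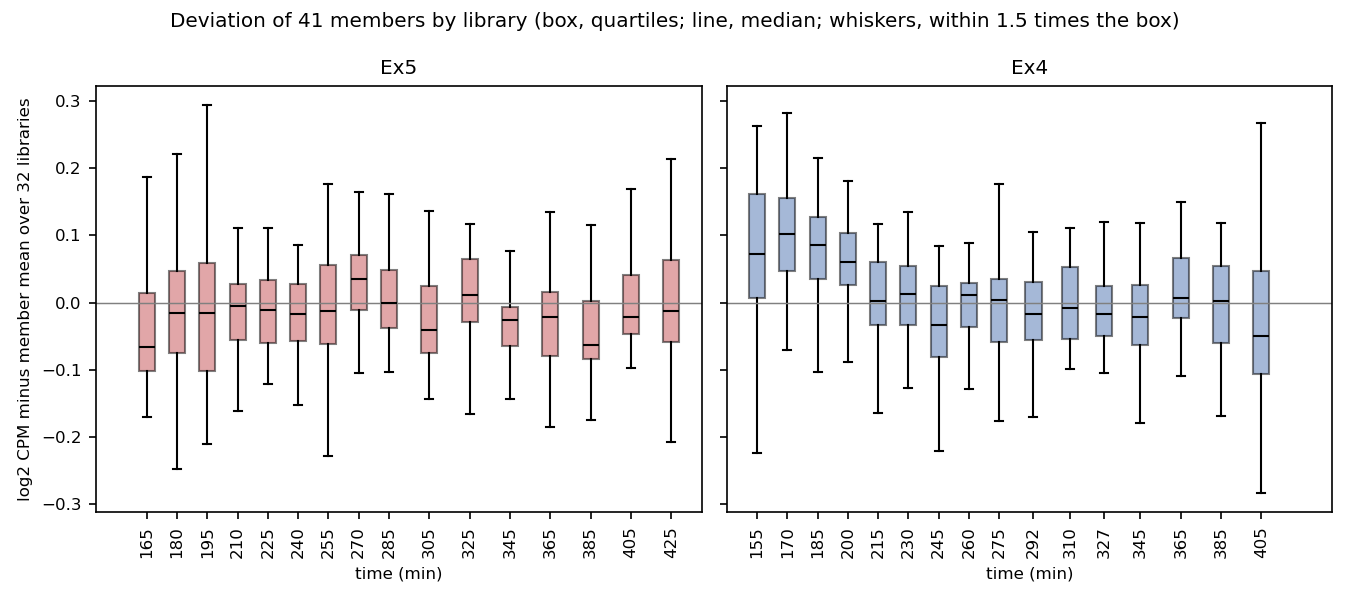
Deviation of the 41 members in each library, as log2 CPM minus the gene's mean over 32 libraries, against time in min, with Ex5 on the left and Ex4 on the right. Boxes give the quartiles and the line the median over members; the medians of the 4 opening libraries of Ex4 lie at 0.059 to 0.10, above every other library.

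Cyclin E, the partner of Cdk2 that drives entry into S phase, gave the most evident falls. Ccne1 (chr7:38097984-38107534, minus strand, GRCm38) had 91.6, 107 and 116 CPM as the lowest, median and highest of the 16 libraries of Ex5, and 83.9, 97.6 and 115 CPM in Ex4. Its last 5 libraries averaged 95.9 ± 2.7 CPM against 110 ± 3.6 CPM for the first 5 in Ex5, and 89.9 ± 4.4 against 111 ± 4.3 CPM in Ex4 (SD, n = 5 each). Late and early libraries did not overlap in either course, and the fall ran through the whole of Ex4. The slope was -0.093 ± 0.017 in Ex5 (SE, adjusted p = 1.92e-05) and -0.17 ± 0.018 in Ex4 (adjusted p = 2e-09, edgeR's quasi-likelihood test), which is -6.27% and -11.1% per 100 min. Without the 4 opening libraries the Ex4 slope was -0.16 (adjusted p = 5.25e-05).

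Ccne2, the second cyclin E gene, had a lower level (lowest, median and highest of 21.8, 27.7 and 34.6 CPM in Ex5, and 23.1, 27.6 and 41.1 CPM in Ex4). It fell in both courses, by a mean of 0.21 ± 0.038 on the log2 scale per 100 min (adjusted p = 2.19e-05, edgeR's quasi-likelihood test), with late and early libraries overlapping in each. Its Ex4 slope of -0.24 ± 0.052 was -0.089 and did not pass without the 4 opening libraries (adjusted p = 0.443), and 17.4% of its exonic length lies under exons of Ints8 on the other strand.

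E2f1, an activating E2F and itself an E2F target, moved the other way. Its lowest, median and highest values were 53.2, 60.5 and 66.2 CPM in Ex5 and 49.3, 54.9 and 61.7 CPM in Ex4. The late libraries averaged 61.9 ± 2.4 CPM against 56.7 ± 3.1 CPM early in Ex5, and 58.7 ± 3.0 against 53.6 ± 3.9 CPM in Ex4 (SD, n = 5 each), with some overlap in both. The slopes were 0.083 ± 0.023 in Ex5 (adjusted p = 0.00254) and 0.082 ± 0.024 in Ex4 (adjusted p = 0.0067, edgeR's quasi-likelihood test), with a 95% interval for their difference of -0.064 to 0.065. E2f2, a second activating E2F, was near the filter at 4.29 to 6.00 CPM in Ex5 and 5.35 to 8.75 CPM in Ex4, and neither of its slopes passed. The cyclin E genes thus fell while E2f1 rose in the same libraries.

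**Figure D2:**
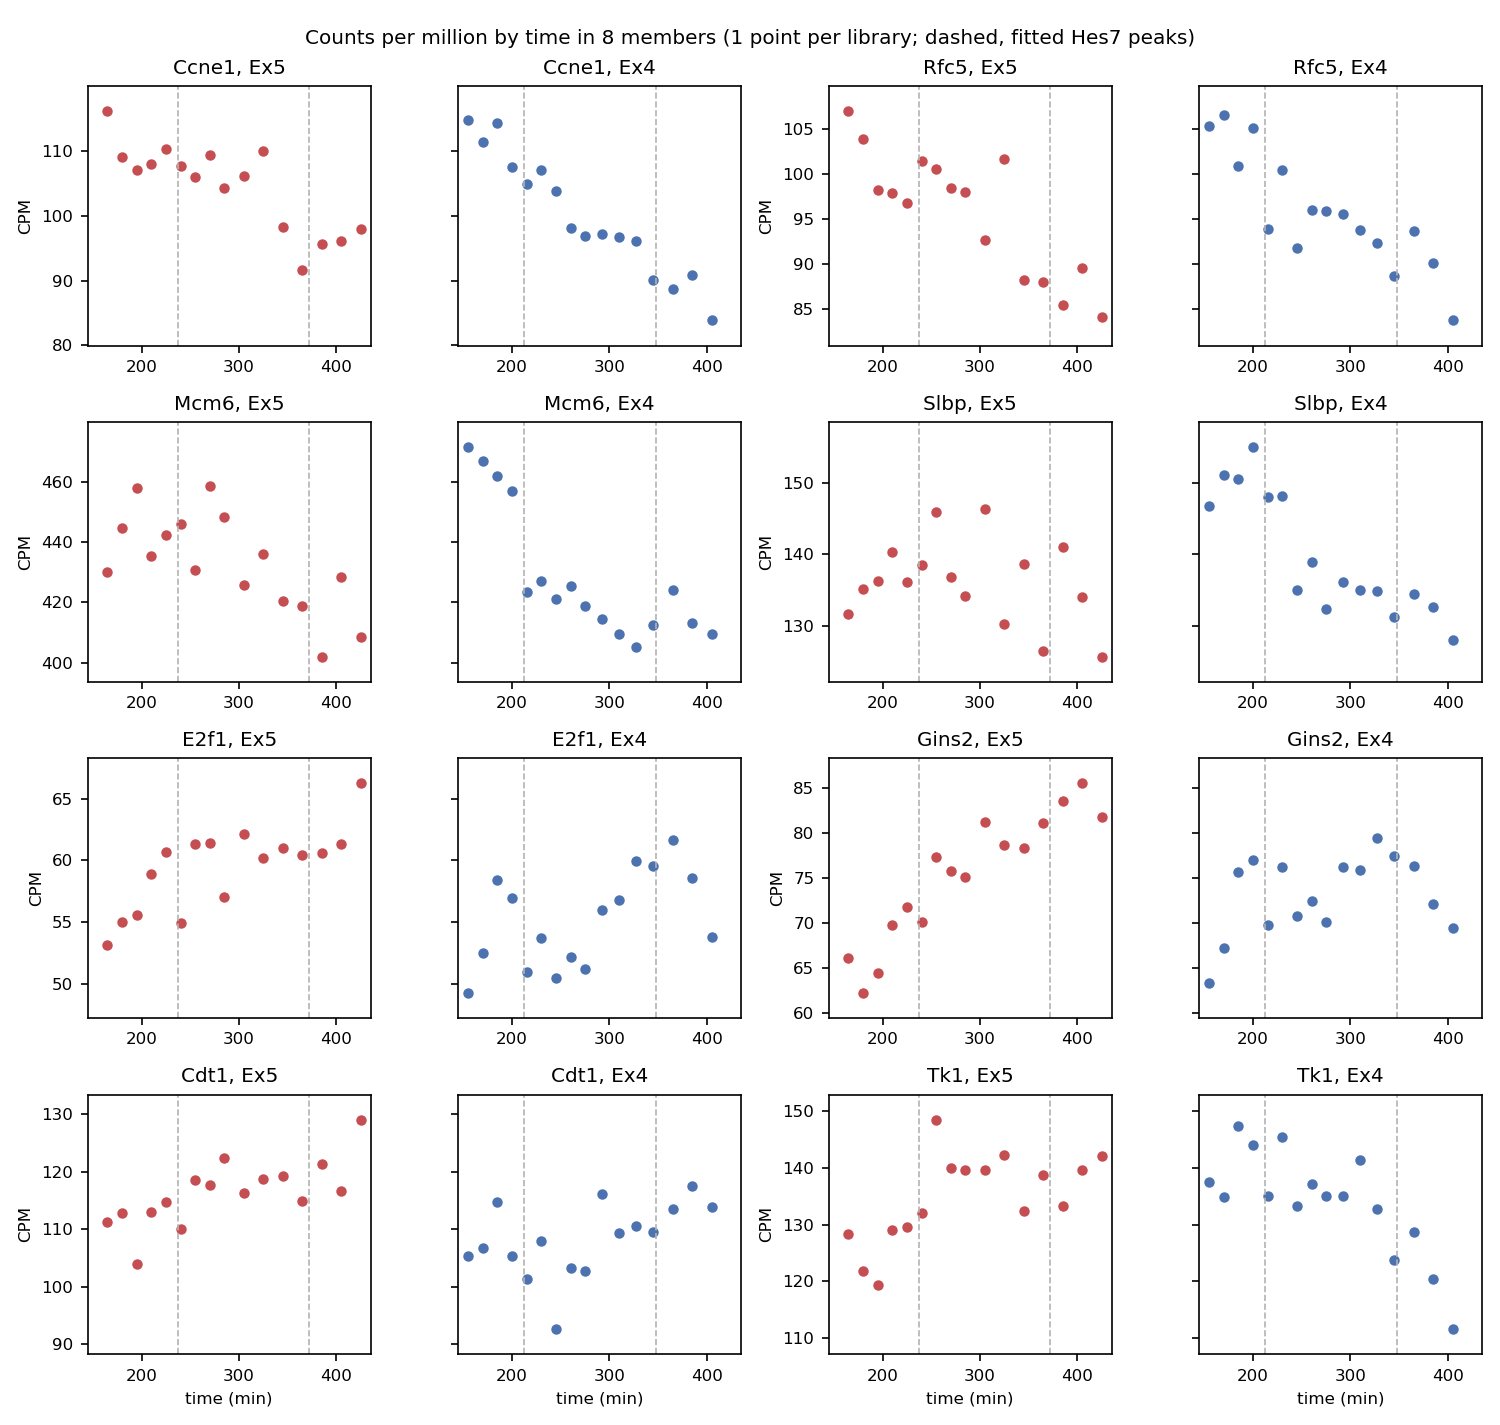
Scaled counts (CPM) against time in min for 8 members, 1 point per library, with the Ex5 panel to the left of the Ex4 panel for each gene, a shared vertical scale that does not start at 0, and dashed lines at the fitted Hes7 peaks. Ccne1 and Rfc5 decline in both courses, E2f1 and Cdt1 rise in both, Gins2 climbs in Ex5, and Tk1 ends at 142 CPM in Ex5 and 112 CPM in Ex4.

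Within the MCM helicase, Mcm4, Mcm5 and Mcm6 fell in both courses, while neither slope of Mcm2, Mcm3 or Mcm7 passed; the difference between subunits was not tested. Mcm6 (chr1:128331590-128359664, minus strand) had 402, 433 and 459 CPM in Ex5 and 405, 422 and 472 CPM in Ex4 as lowest, median and highest. Its late libraries averaged 416 ± 10 CPM against 442 ± 11 CPM early in Ex5 with no overlap, and 413 ± 7.0 against 456 ± 19 CPM in Ex4 with overlap (SD, n = 5 each). In Ex4 the 4 opening libraries, at 457 to 472 CPM, stood above the other 12. The mean slope of Mcm6 was -0.062 ± 0.012 (adjusted p = 4.44e-05), that of Mcm4 -0.076 ± 0.015 (adjusted p = 6.66e-05) and that of Mcm5 -0.058 ± 0.012 (adjusted p = 0.000119, all by edgeR's quasi-likelihood test). In Ex4 alone none of the 3 passed without the 4 opening libraries (-0.0046 and adjusted p = 0.936 for Mcm4, -0.0044 and 0.929 for Mcm5, -0.024 and 0.499 for Mcm6), whereas in Ex5 all 3 passed with time points 1 to 4 of both courses left out.

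Mcm2, the licensing gene with the highest CPM, had 526, 541 and 561 CPM in Ex5 and 508, 537 and 576 CPM in Ex4 as lowest, median and highest, with a mean slope of -0.0059 ± 0.011 (adjusted p = 0.661). Its values stayed within a narrow band in both courses. Of the loaders, Cdt1 rose in both, at 0.069 ± 0.022 in Ex5 (adjusted p = 0.00757) and 0.058 ± 0.023 in Ex4 (adjusted p = 0.0456), and the Ex4 call was lost without any 1 of 15 libraries. Its late and early means were 120 ± 5.5 and 111 ± 4.2 CPM in Ex5 and 113 ± 3.1 and 107 ± 4.9 CPM in Ex4 (SD, n = 5 each). For Cdc6, the partner of Cdt1 in loading, the slopes were -0.021 ± 0.024 and 0.014 ± 0.024 and neither passed with all libraries. Mcm10, which links the helicase to polymerase alpha, had slopes of -0.0078 ± 0.015 in Ex5 and -0.012 ± 0.016 in Ex4 that did not pass.

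E2F sites near the start are a textbook feature of these genes, so the RefSeq promoter windows (GRCm38.p6, 250 bases before to 50 after the start) were searched for the words TTTCCCGC, TTTCGCGC, TTTGCCGC and TTTGGCGC on both strands. A window was given for 35 of the 41 genes. At least 1 word was present in 15 of them (42.9%) against 704 of 27025 genes (2.605%), and at least 2 in 5 (Mcm3, Mcm5, Mcm6, Mcm7 and Rfc3) against 0.107% of all genes. The word CCAAT was present in 19 of 35 (54.3%) against 41.1% of all genes. The 15 genes with an E2F word included 2 that rose and 4 that fell on the mean slope, and the 20 without one included 3 that rose and 7 that fell. E2f1 is among the 20, but its window (chr2:154569377-154569676) lies wholly inside the GENCODE M21 gene (chr2:154559407-154569892, minus strand). The bases before the outermost start of E2f1 were thus not searched. The windows below are of Mcm6 and Mcm5, which fell in both courses, and of Mcm3 and Rfc3, of which neither slope passed. They set the sites of genes whose slopes passed and did not pass side by side. They are written 5′ to 3′ on the strand of the gene, with E2F words in capitals, adjoining or overlapping words as 1 run; a match is a description of letters only.
Mcm6 (chr1:128359656-128359955, minus strand): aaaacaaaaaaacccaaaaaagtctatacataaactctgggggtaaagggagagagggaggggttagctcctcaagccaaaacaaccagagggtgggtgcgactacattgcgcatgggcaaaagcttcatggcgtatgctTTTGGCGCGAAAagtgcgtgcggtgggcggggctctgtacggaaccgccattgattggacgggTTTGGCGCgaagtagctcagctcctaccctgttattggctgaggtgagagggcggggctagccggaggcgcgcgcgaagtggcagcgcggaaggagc
Mcm5 (chr8:75109259-75109558, plus strand): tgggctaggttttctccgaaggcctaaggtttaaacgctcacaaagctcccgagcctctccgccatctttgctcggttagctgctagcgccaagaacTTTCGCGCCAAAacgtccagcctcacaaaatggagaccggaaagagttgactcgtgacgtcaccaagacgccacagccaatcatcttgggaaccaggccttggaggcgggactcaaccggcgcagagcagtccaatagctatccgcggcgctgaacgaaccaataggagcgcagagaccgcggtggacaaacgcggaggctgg
Mcm3 (chr1:20820263-20820562, minus strand): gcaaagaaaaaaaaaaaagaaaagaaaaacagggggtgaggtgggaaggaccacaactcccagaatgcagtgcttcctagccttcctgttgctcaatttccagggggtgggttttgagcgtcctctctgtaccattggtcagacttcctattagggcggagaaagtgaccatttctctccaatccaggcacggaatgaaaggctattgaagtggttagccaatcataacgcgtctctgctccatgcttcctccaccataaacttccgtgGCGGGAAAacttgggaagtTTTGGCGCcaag
Rfc3 (chr5:151651159-151651458, minus strand): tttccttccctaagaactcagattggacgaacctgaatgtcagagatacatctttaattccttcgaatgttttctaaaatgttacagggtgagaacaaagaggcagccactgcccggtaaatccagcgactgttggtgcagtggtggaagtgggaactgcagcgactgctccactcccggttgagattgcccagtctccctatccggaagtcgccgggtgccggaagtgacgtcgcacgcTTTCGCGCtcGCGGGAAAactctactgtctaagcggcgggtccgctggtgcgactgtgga
All 4 windows hold at least 2 words. In Mcm6 and Mcm5 a pair of words on opposite strands overlaps upstream of the start, in Rfc3 the words flank the start, and in Mcm3 both lie downstream of it. Mcm7, the other gene with at least 2 words, has them at -165 and 16 bases from the start, and neither of its slopes passed. A link between the place of the words and the slopes was not tested.

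Helicase activation was split. Gins2 (chr8:120578633-120589304, minus strand), a subunit of the GINS complex, had the largest rise among the members: 62.3, 76.6 and 85.5 CPM as lowest, median and highest in Ex5, and 63.3, 74.1 and 79.4 CPM in Ex4. Late libraries averaged 82.1 ± 2.7 CPM against 66.9 ± 3.9 CPM early in Ex5 without overlap, and 74.96 ± 4.1 against 70.6 ± 5.7 CPM in Ex4 with overlap (SD, n = 5 each). The slope was 0.15 ± 0.022 in Ex5 (adjusted p = 6.31e-07), or 11.0% per 100 min, and 0.045 ± 0.023 in Ex4 (adjusted p = 0.132, edgeR's quasi-likelihood test). In the GENCODE M21 annotation 67.3% of the exonic length of Gins2 lies under exons of Gse1 on the other strand, and the strand setting of the counting is not given, so reads of the 2 genes may be shared. By edgeR's quasi-likelihood test the mean slope of Gse1 was 0.012 (adjusted p = 0.638), and Gse1 cycled with the clock (log2 amplitude 0.51, adjusted p = 9.215e-11). Gins2 did not pass the rhythm test, with an amplitude of 0.090 (unadjusted p = 0.0392, adjusted p = 0.354). Its fitted peak lay at -2.53 min from that of Hes7. Whether the 2 genes share reads was not tested.

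Cdc45, which joins MCM and GINS in the active helicase, had 91.9, 97.8 and 109 CPM in Ex5 and 87.6, 96.5 and 104 CPM in Ex4 as lowest, median and highest. Its slope was -0.0029 ± 0.019 in Ex5 (adjusted p = 0.914) and -0.092 ± 0.020 in Ex4 (adjusted p = 0.000519, edgeR's quasi-likelihood test), and late and early libraries did not overlap in Ex4 (90.8 ± 3.2 and 102 ± 2.1 CPM; SD, n = 5 each). Gins1 fell in Ex4 at -0.062 ± 0.023 (adjusted p = 0.0356), and Gins3, at 26.3 to 33.6 CPM in Ex5 and 27.7 to 32.03 CPM in Ex4, passed in neither. Without the 4 opening libraries of Ex4 neither passed there, with slopes of -0.075 for Cdc45 (adjusted p = 0.0979) and -0.031 for Gins1 (adjusted p = 0.587).

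Among the 15 genes of the synthesis machinery 2 rose and 2 fell in Ex5 (background 25.8% rising and 25.3% falling). In Ex4 7 of them fell and 0 rose (background 15.5% falling and 16.9% rising). By edgeR's quasi-likelihood test 0 of the 15 rose in Ex4 at an unadjusted p under 0.05, and 0 by DESeq2 or limma-voom. Over all 11772 genes tested, 4961 Ex4 slopes were under that unadjusted p, in either direction. By DESeq2 2054 of all genes rose in Ex4, and by limma-voom 2027. Rfc5 (chr5:117378103-117389047, minus strand), a subunit of the loader that opens the sliding clamp, fell at the same pace in both courses. Its lowest, median and highest values were 84.1, 98.0 and 107 CPM in Ex5 and 83.7, 94.7 and 107 CPM in Ex4. Late libraries averaged 87.1 ± 2.2 CPM against 101 ± 4.5 CPM early in Ex5, and 89.7 ± 3.9 against 102 ± 5.2 CPM in Ex4 (SD, n = 5 each), with no overlap in either. The slopes were -0.11 ± 0.019 in Ex5 (adjusted p = 8.39e-06) and -0.11 ± 0.019 in Ex4 (adjusted p = 4.02e-05, edgeR's quasi-likelihood test), and the second was -0.080 without the 4 opening libraries (adjusted p = 0.0552). The exons of Wsb2, which fell too (-0.13, adjusted p = 0.000316), lie over 10.7% of Rfc5 on the other strand. Rfc2, Rfc3 and Rfc4, the other loader subunits in the set, passed in neither course.

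Pcna, the sliding clamp, had 283, 312 and 358 CPM in Ex5 and 289, 306 and 363 CPM in Ex4 as lowest, median and highest, and fell with a mean slope of -0.075 ± 0.017 (adjusted p = 0.000342). The annotation lists Pcna-ps1 and Pcna-ps2, processed pseudogenes that may take some of its reads. Without the 4 opening libraries of Ex4 the mean slope was -0.043 and did not pass (adjusted p = 0.0558). Late and early libraries of Pcna overlapped in both courses.

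Among the replicative polymerases different subunits passed the test, and differences between subunits were not tested. Pold1, the catalytic subunit of polymerase delta, had 140, 169 and 185 CPM in Ex5 and 150, 173 and 189 CPM in Ex4 as lowest, median and highest. It rose in Ex5 at 0.10 ± 0.023 (adjusted p = 0.000288), and its Ex4 slope was 0.035 ± 0.024 (adjusted p = 0.27, edgeR's quasi-likelihood test). Pold3, an accessory subunit of the same enzyme, had slopes of 0.038 ± 0.017 in Ex5 (adjusted p = 0.065) and -0.046 ± 0.018 in Ex4 (adjusted p = 0.047), an Ex4 call lost without any 1 of 17 libraries. For polymerase epsilon, the catalytic Pole passed in neither course, and Pole2, its second subunit, fell in Ex4 at -0.11 ± 0.027 (adjusted p = 0.00178). In polymerase alpha and its primase, Pola2 rose in Ex5 at 0.056 ± 0.020 (adjusted p = 0.0213), Prim1, the primase catalytic subunit, fell in Ex4 at -0.066 ± 0.020 (adjusted p = 0.00907), and Pola1, the catalytic subunit, passed in neither. Prim1 was between 57.2 and 65.5 CPM (median 61.1) in Ex5, where the late libraries lay above the early ones without overlap, and between 56.5 and 66.2 CPM (median 60.4) in Ex4.

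Rpa2, part of the complex that coats single strands, and Lig1, the ligase of the lagging strand, fell in Ex4, at -0.061 ± 0.020 (adjusted p = 0.015) and -0.077 ± 0.018 (adjusted p = 0.00103), and had Ex5 slopes of 0.030 ± 0.019 and -0.0099 ± 0.017 that did not pass. Lig1 held its Ex4 call without the 4 opening libraries (-0.075, adjusted p = 0.0392), and Rpa2, with a slope of the same size, did not (-0.062, adjusted p = 0.168). Fen1, which trims lagging-strand flaps, missed the threshold in Ex4 (-0.045 ± 0.018, adjusted p = 0.053).

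In nucleotide supply, Tk1 (chr11:117815526-117826092, minus strand), the thymidine kinase of the salvage pathway, was the member whose courses diverged most. Its lowest, median and highest values were 119, 136 and 148 CPM in Ex5 and 112, 135 and 147 CPM in Ex4. Late libraries averaged 137 ± 4.2 CPM against 126 ± 4.7 CPM early in Ex5, and 123 ± 8.1 against 140 ± 5.7 CPM in Ex4 (SD, n = 5 each). Late stood above early in Ex5 and below early in Ex4, with no overlap in either. The slopes were 0.057 ± 0.022 in Ex5 (adjusted p = 0.0313) and -0.11 ± 0.023 in Ex4 (adjusted p = 0.000559, edgeR's quasi-likelihood test), and the Ex4 slope was -0.13 without the 4 opening libraries (adjusted p = 0.00618).

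Tyms, thymidylate synthase, rose in Ex5 at 0.072 ± 0.018 (adjusted p = 0.000908), where it was at 105, 114 and 126 CPM as lowest, median and highest; in Ex4 it was at 109, 117 and 121 CPM with a slope of -0.018 ± 0.018 (adjusted p = 0.472). The annotation also holds its processed pseudogene Tyms-ps. Rrm2, the small subunit of ribonucleotide reductase, had 398, 423 and 451 CPM in Ex5 and 416, 440 and 517 CPM in Ex4 as lowest, median and highest. Rrm1, the large subunit, had 283, 310 and 327 CPM in Ex5 and 310.0, 334 and 373 CPM in Ex4. Both fell in Ex4 (Rrm2 -0.062 ± 0.019, adjusted p = 0.0118; Rrm1 -0.074 ± 0.018, adjusted p = 0.00168), with late below early and no overlap, and neither passed without the 4 opening libraries (Rrm2 -0.0053, adjusted p = 0.919; Rrm1 -0.045, adjusted p = 0.277).

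Of the genes that package new DNA, Slbp, which binds the stem-loop of replication histone mRNAs, had 126, 136 and 146 CPM in Ex5 and 128, 136 and 155 CPM in Ex4 as lowest, median and highest. It fell in Ex4 at -0.098 ± 0.019 (adjusted p = 9.19e-05), with 132 ± 2.8 CPM late and 150 ± 3.1 CPM early (SD, n = 5 each) and no overlap, and its Ex5 slope was -0.025 ± 0.018 (adjusted p = 0.242, edgeR's quasi-likelihood test). Without the 4 opening libraries the Ex4 slope was -0.077 (adjusted p = 0.0561). Chaf1a and Chaf1b, subunits of the CAF-1 histone chaperone, rose on the mean slope at 0.049 ± 0.014 (adjusted p = 0.00417) and 0.038 ± 0.015 (adjusted p = 0.0291). Chaf1a had 166, 183 and 200 CPM in Ex5 and 178, 192 and 207 CPM in Ex4 as lowest, median and highest. Exons of Ubxn6, which rose too (0.062, adjusted p = 0.0064), lie over 52.5% of Chaf1a on the other strand, so part of its count may belong there.

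Of the 2 repair genes 1 passed the test. Ung, the uracil glycosylase that cleans newly made DNA, had 71.7, 78.3 and 91.7 CPM in Ex5 and 66.8, 72.5 and 80.7 CPM in Ex4 as lowest, median and highest, and fell in Ex5 at -0.085 ± 0.023 (adjusted p = 0.00196), with late below early and no overlap. In Ex4 its slope was -0.050 ± 0.024 (adjusted p = 0.105). Msh6, of the mismatch recognition complex, had 192, 210.2 and 219 CPM in Ex5 and 213, 223 and 235 CPM in Ex4, and its slopes of 0.015 ± 0.018 and -0.00057 ± 0.018 did not pass.

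**Figure D3:**
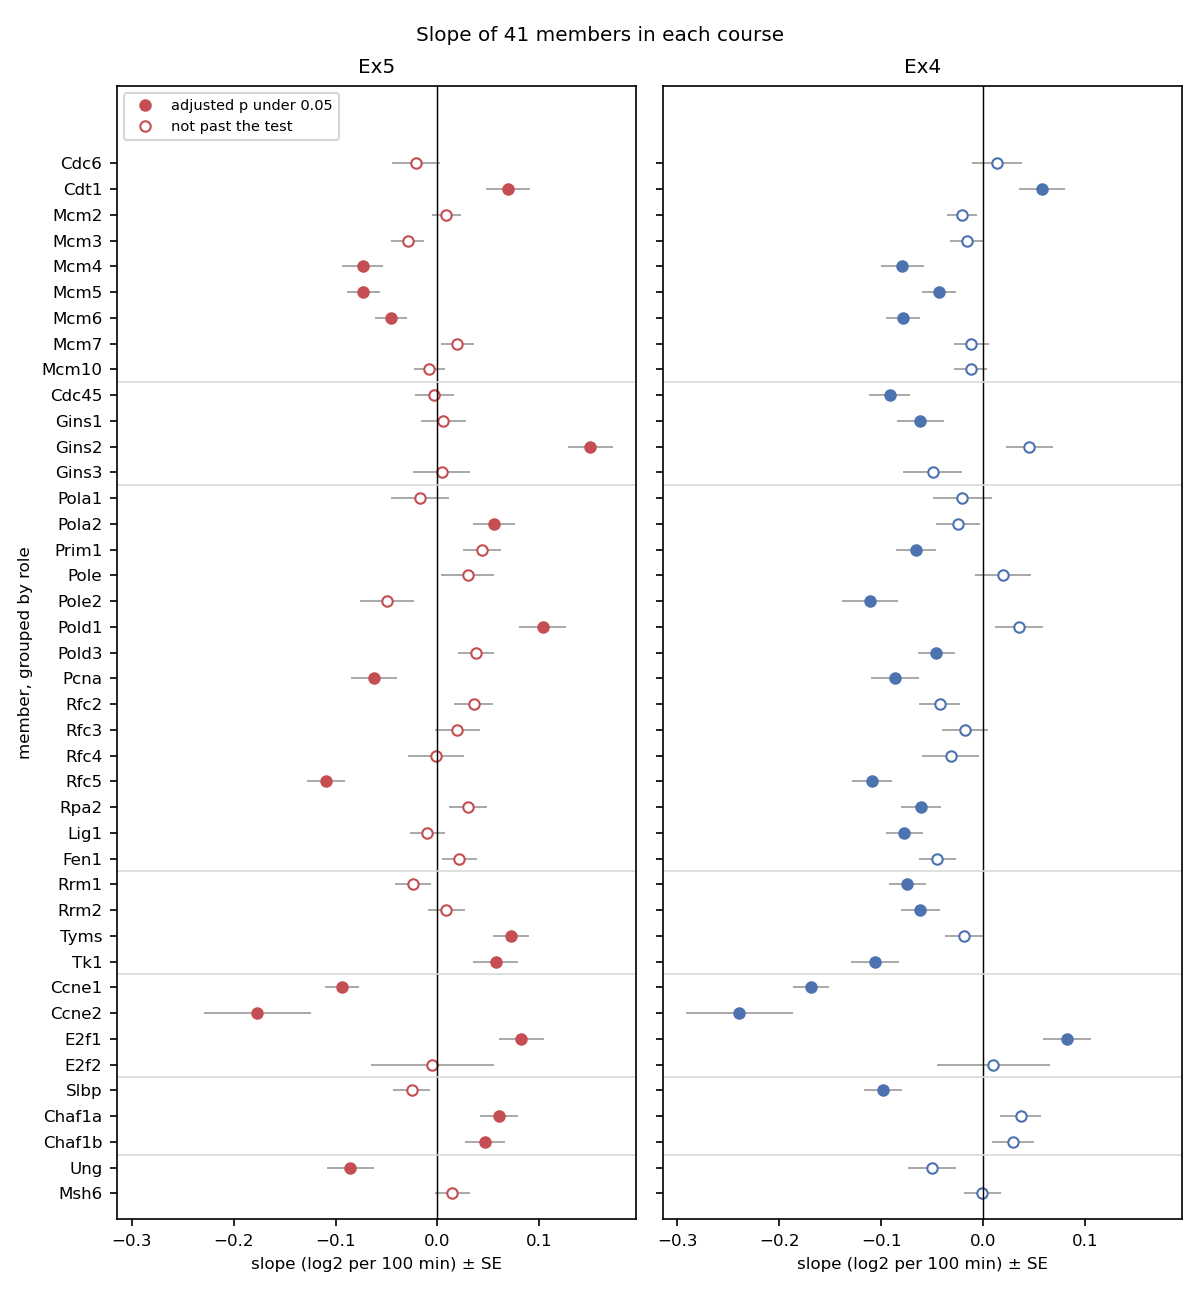
Slope of each of the 41 members in log2 per 100 min with its standard error, grouped by role from licensing at the top to repair at the bottom, with Ex5 on the left and Ex4 on the right. Filled points passed the test (17 in Ex5, 20 in Ex4), and most points sit further left in the Ex4 panel.

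Late and early libraries were also set against each other without a model. In Ex5, 6 members had the last 5 libraries wholly below the first 5 (background 15%) and 4 wholly above (background 15.6%). In Ex4, 8 were wholly below (background 8.03%) and 0 wholly above (background 9.81%). Rfc5 and Ccne1 were below in both courses.

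The courses drifted differently for part of the set. The slope was higher in Ex5 than in Ex4 for 35 of 41 members, against 50.2% of all genes, the exceptions being Cdc6, Mcm3, Mcm5, Rfc5, E2f2 and Ung. The difference itself passed for 12 members, 12 higher and 0 lower in Ex5, against a background of 16.1% called, 7.03% higher and 9.06% lower. The largest were Tk1 (0.16 ± 0.031, adjusted p = 0.0004), Prim1 (0.11 ± 0.026, adjusted p = 0.00381) and Gins2 (0.10 ± 0.031, adjusted p = 0.0179), with Tyms at 0.090 ± 0.025 (adjusted p = 0.0101, edgeR's quasi-likelihood test). By role, 6 of 15 genes of synthesis, 2 of 4 of helicase activation, 2 of 4 of nucleotide supply, Ccne1 and Slbp passed, and 0 of 9 licensing genes did. At an unadjusted p under 0.05 the same test gave 17 members higher and 0 lower, and 0 of the licensing genes. Over all 11772 genes tested 3580 were under that value, in either direction. DESeq2 called 13 higher and limma-voom 11, and both called 0 lower and 0 licensing genes. Among all genes DESeq2 called 2016, of which 860 were higher, and limma-voom 1891, of which 820 were higher. Of the polymerase and primase genes Prim1, Pola2 and Pold3 passed and Pola1, Pole, Pole2 and Pold1 did not, and of the nucleotide enzymes Tk1 and Tyms passed. A difference between licensing genes and the other roles was not tested.

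Fewer of these differences passed without the opening of Ex4. Over all 11772 genes tested, 1224 slope differences were then called, against 1894 with all libraries. Without its 4 opening libraries, the slope difference passed for Tk1 (0.19, adjusted p = 0.0026) and Gins2 (0.13, adjusted p = 0.0259) in the same direction and for Cdc6 in the other (-0.13, adjusted p = 0.0235), and for no further member. The other 10 were not called, but 7 of them kept at least 75% of their size (Rpa2 0.091, Lig1 0.064, Ccne1 0.069 among them). The median of the 12 was 0.071 without the 4 and 0.086 with all libraries. These 12 were picked by their calls with all libraries, so their sizes do not stand for the whole set. With time points 1 to 4 of both courses left out the slope difference passed for Tk1 alone (0.15, adjusted p = 0.0416, edgeR's quasi-likelihood test). It then passed for 501 of all genes tested.

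Levels at 285 min, in mid course, differed between the courses for 18 members, 5 higher and 13 lower in Ex5, against a background of 55.1% called, 27.4% higher and 27.7% lower. E2f2 stood apart with a log2 difference of -0.51 ± 0.061 (0.702-fold, adjusted p = 5.04e-09). It had 4.29, 4.82 and 6.00 CPM in Ex5 and 5.35, 7.02 and 8.75 CPM in Ex4 as lowest, median and highest, with a small overlap. Rfc2 had 108, 117 and 124 CPM in Ex5 and 115, 133 and 140.2 CPM in Ex4, a difference of -0.19 ± 0.021 (0.876-fold, adjusted p = 5.69e-10). Pole had 113, 126 and 136 CPM in Ex5 and 133, 138 and 162 CPM in Ex4, a difference of -0.18 ± 0.028 (0.881-fold, adjusted p = 9.1e-07, edgeR's quasi-likelihood test). In all 3 the Ex5 libraries lay mostly below those of Ex4.

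The other lower members were Mcm7, Pola1, Pold1, Pold3, Rfc4, Lig1, Rrm1, Rrm2, Chaf1a and Msh6, with differences of -0.13 (Pola1) to -0.065 (Rrm2). With quadratic time the calls of Rfc4, Rrm2, Pola1 and Msh6 were lost, without the opening libraries of Ex4 those of Rfc4 (-0.056) and Rrm2 (-0.038), and with time points 1 to 4 of both courses left out also that of Pold1. The 5 higher ones were Ung (0.13), E2f1 (0.099), Cdt1 (0.097), Ccne1 (0.089) and Mcm3 (0.044), and each of these 3 alternatives called 9 higher. Over all 11772 genes tested the same 3 alternatives, in the order given, called 2687, 3020 and 2921 levels higher. Members of the synthesis machinery were 0 higher and 7 lower of 15, those of licensing 2 higher and 1 lower of 9 (background 27.4% higher and 27.7% lower). Within single complexes, Mcm7 was lower (-0.11 ± 0.018, adjusted p = 1.8e-06) and Mcm3 higher (0.044 ± 0.018, adjusted p = 0.0312). The call of Mcm3 was lost with no filter on low counts (adjusted p = 0.0632), with the replicate block (adjusted p = 0.0805) and without any 1 of 5 libraries (Ex5 time points 4, 5 and 8, Ex4 time points 5 and 16). Besides E2f2, these differences ran from 0.876-fold (Rfc2) to 1.09-fold (Ung).

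**Figure D4:**
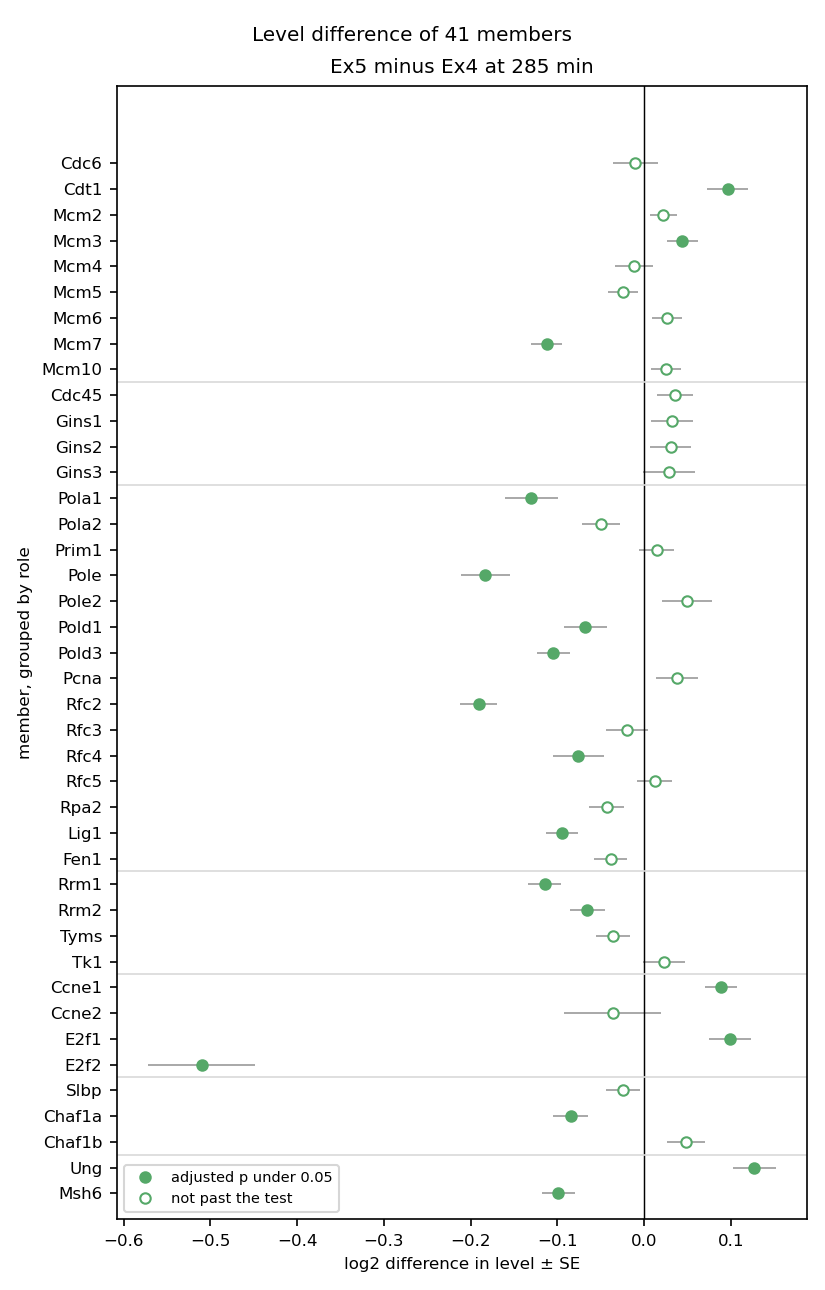
Difference in level at 285 min, Ex5 minus Ex4, as log2 with its standard error for the 41 members grouped by role. Filled points passed the test; E2f2 lies furthest to the left at -0.51, and Ung furthest to the right at 0.13.

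No member was found to cycle with the clock. Hes7 itself gave a period of 135 min with peaks at 237 and 372 min in Ex5 and at 212 and 347 min in Ex4, and the rhythm of every gene was tested as a shared cosine and sine of that phase. Of 41 members 0 passed, against a background of 1.32% of genes tested, and 0 passed with DESeq2 or limma-voom. By edgeR's quasi-likelihood test 3 had an unadjusted p under 0.05 (Gins2, Pola1 and E2f1), and the smallest adjusted p was 0.312. The fitted peak-to-trough amplitude was under 1.1-fold for 40 of 41, with a median of 0.044 on the log2 scale for the members and 0.069 for all genes. Hes7 had an amplitude of 1.01 and Lfng of 1.65 on the same scale. The largest member amplitude was that of E2f2 (0.17, adjusted p = 0.604), the member with the fewest counts.

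Among the 3, Pola1 had 53.5, 59.6 and 65.2 CPM in Ex5 and 58.4, 64.3 and 74.7 CPM in Ex4 as lowest, median and highest, with an amplitude of 0.12, and E2f1 and Gins2 had amplitudes of 0.094 and 0.090. These amplitudes are smaller than the range of each gene over the libraries of a course. That range also holds slope and scatter, so the comparison does not bear on a rhythm. A difference in rhythm between Ex5 and Ex4 was called for 0 of 41 members and 0% of all genes, with 3 members (Gins3, Rfc2 and E2f1) and 644 genes below 0.05 before adjustment. The count was 0 members with each of the other tools as well.

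**Figure D5:**
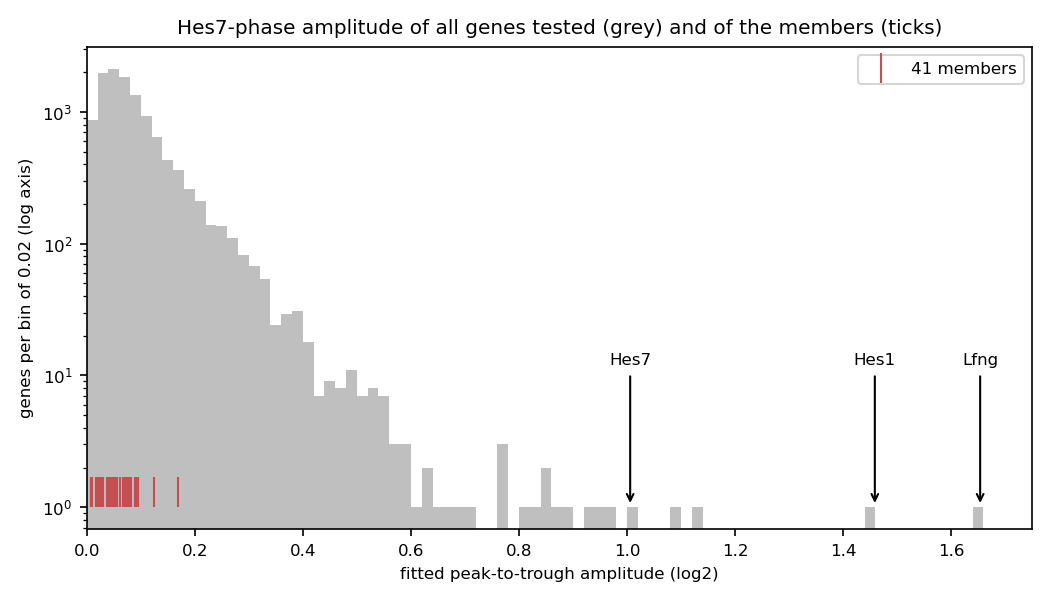
Number of genes, on a log axis, by fitted peak-to-trough amplitude in log2 at the Hes7 period, for all 11772 genes tested (grey bars) and for the 41 members (ticks), with Hes7, Hes1 and Lfng marked. The members lie at the low end, up to 0.17, as most genes do (median 0.044 for the members and 0.069 for all genes), while Hes7 is at 1.01.

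What was left after slopes and rhythm were taken out was weakly shared among the members. The median correlation between 2 members of their deviations from the fitted curves was 0.17 over 820 pairs and 32 libraries (0.13 in Ex5 and 0.26 in Ex4), while that of members with all other genes tested was 0.0054. The genes share libraries and depth, so this is a description.

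Other genes of the cell cycle were read from lists. Of all genes tested, 26.8% rose and 26.6% fell on the mean slope. The shares were 25.8% and 25.3% in Ex5 and 16.9% and 15.5% in Ex4. The slope difference was higher in Ex5 for 7.03% and lower for 9.06%. Of 53 further replication genes tested, 3 rose and 23 fell on the mean slope, among them Pold2 (0.094), of polymerase delta, and the histone chaperone Nasp (0.060) rising, and the helicase gene Mcm8 (-0.23) falling. In Ex5 7 rose and 15 fell, in Ex4 1 rose and 28 fell, and the slope difference was higher in Ex5 for 17 and lower for 2. Their sum in Ex4 was 6771 ± 29 CPM late and 7139 ± 86 CPM early (SD, n = 5 each), and in Ex5 it was 6722 ± 59 and 6693 ± 105 CPM. The wider list thus fell in Ex4 as the members did.

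Of 16 E2F and RB family genes 5 rose and 9 fell on the mean slope (background 26.8% rising and 26.6% falling). These were led by E2f8 (0.20), a repressor E2F, and Rbl1 (0.062) rising and by Rb1 (-0.15) and Rbl2 (-0.15) falling. Rb1, Rbl1 and Rbl2 encode the RB proteins, and Rb1 and Rbl2 had few counts (means of 8.53 and 5.09 CPM). Of 9 tested genes for D cyclins, Cdk4/6 and their inhibitors, 3 rose and 3 fell, with Cdkn1b (0.17) and Cdk4 (0.073) rising and Ccnd2 (-0.10) and Cdkn1a (-0.072) falling. In that list Cdkn1c passed the rhythm test (log2 amplitude 0.22, adjusted p = 0.0289, edgeR's quasi-likelihood test). Of 31 G2/M genes 8 rose and 9 fell on the mean slope, near the shares of all genes. Among them Cdc25b (0.38) and Bub1b (0.094) rose and Ccnf (-0.10) and Nuf2 (-0.082) fell. In Ex5 5 of the G2/M genes rose and 9 fell, where 9 members of the replication set rose and 8 fell (background 25.8% rising and 25.3% falling). In Ex4 9 of the G2/M genes rose and 1 fell, where 2 members of the replication set rose and 18 fell (background 16.9% rising and 15.5% falling). The difference between these lists was not tested.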

How the data were processed

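Raw read counts per gene symbol are used as deposited by the authors. The labels' protocols describe 200 ng of total RNA per dish in a strand-specific mRNA kit. The submitters' processing notes name mm10 and the tools HTSeq 0.6.1, HISAT2 2.1.0, bcl2fastq 2.17.1.14 and cutadapt 1.14, with no annotation or strand setting given. All 32 columns matched 1 sample each by description, 0 were left unused, and 0 pairs of libraries were identical.

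CPM use TMM factors (edgeR 4.0.16, R 4.3.3). After a filter (1 CPM or more in 16 or more libraries), 11772 genes entered a quasi-likelihood fit in edgeR. Each course had its own level and linear slope, with time centred on 285 min, and both shared a cosine and a sine of the Hes7 phase. That phase came from a least squares fit of Hes7 over periods of 90 to 240 min. P-values were adjusted by Benjamini-Hochberg over the 11772 genes, and standard errors derive from the F statistic. DESeq2 1.42.0, limma-voom 3.58.1, other scalings, filters and time terms, and each library left out were alternatives. The procedure was tested on simulated counts. The shallowest library had 16.1 M counts and the deepest 29.5 M, and the scatter of libraries includes counting error. Gene models come from GENCODE M21 and promoters from RefSeq. The luminometer record was not used here.

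Members were given by symbol, and the lists, the tests and the rule for named genes (per role the highest CPM and smallest trend p, and the 3 leading genes per test) were chosen with earlier results of these data known. Time points of like number in the 2 courses lie 10 to 20 min apart and mark no shared culture.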

Additional observations from a re-analysis of the deposited data

Results flagged for a closer look

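For 12 members the slope differed between the courses in a test of the difference itself (edgeR's quasi-likelihood test, Benjamini-Hochberg adjusted over 11772 genes), each with the higher slope in Ex5. In log2 per 100 min, Ex5 minus Ex4, the differences were 0.16 for Tk1, 0.11 for Prim1, 0.10 for Gins2, 0.091 for Rpa2, 0.090 for Tyms and 0.089 for Cdc45. They were 0.084 for Pold3, 0.080 for Pola2, 0.078 for Rfc2, 0.076 for Ccne1, 0.073 for Slbp and 0.068 for Lig1. Adjusted p-values ran from 0.0004 for Tk1 to 0.0488 for Lig1. Leaving out the 4 opening libraries of Ex4, chosen after seeing the data, kept Tk1 and Gins2 past the test. Over all genes tested 1224 slope differences then passed, against 1894 with all libraries.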

How the results depend on the processing

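Of the 19 mean slopes called, 10 passed under every alternative, and likewise 5 of 17 in Ex5, 4 of 20 in Ex4, 12 of 18 levels and Tk1 among 12 slope differences. No member cycled under any alternative. Without the opening 4 libraries of Ex4 (added after seeing the data) slopes in Ex4 called 4 rising and 3 falling members, slope differences 2 higher and 1 lower, and levels 9 higher. Over all 11772 genes, 847 of 1518 called Ex4 slopes then rose. Of 1224 slope differences 539 were higher, and of 6038 levels 3020. Without time points 1 to 4 of both courses, also added, Ex4 called 4 and 4, Ex5 4 rising, the slope difference 1 higher, the mean slope 8 falling and levels 9 higher. Among all genes, 972 of 1735 called slopes then rose in Ex4 and 1808 of 3635 in Ex5. Of 501 slope differences 168 were higher, of 4127 mean slopes 2095 rose, and of 5765 levels 2921 were higher. Quadratic time gave 9 levels higher (2687 over all genes) and turned that of Rrm2 to 0.024 (adjusted p = 0.365, edgeR's quasi-likelihood test). With no filter, a filter at 5 CPM or no rhythm terms, 1 member rose in Ex4. The cause was not tested. The replicate block by time point number gave 7 slope differences in place of 12 (over all genes 2151 in place of 1894). The numbers do not pair the libraries (correlation of deviations over 0.1 in 3 of 16 pairs, 0 best with their own number).

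Leaving out 1 library at a time gave 4 to 6 levels higher and 12 to 15 lower, 5 to 7 mean slopes rising and 13 to 14 falling, 5 to 10 rising (5 without Ex5 time point 16) and 6 to 8 falling in Ex5, and 1 to 3 rising and 15 to 19 falling in Ex4. Slope differences were 7 to 13 higher (7 without Ex4 time point 16, or Ex5 time point 2 or 3) and 0 to 0 lower, and rhythm called 0 to 0. Without Ex4 time point 16 the slope differences of Ccne1, Gins2 and Rpa2 and the Ex4 slope of Rpa2 no longer passed, without Ex5 time point 16 the Ex5 slopes of Cdt1, Chaf1a, Mcm6, Pcna, Pola2 and Tk1, without Ex5 time point 1 the slope difference of Cdc45, and without Ex4 time point 1 the Ex4 slope of Rrm2. The calls least held were the slope difference of Lig1 (lost in 25 of 32), the Ex5 slope of Chaf1b (20) and the Ex4 slope of Mcm5 (19). Counting limits E2f2 most, whose Ex5 slope had a standard error of 0.061 against 0.014 for Mcm2.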
